A study of Drosophila melanogaster with 93 samples.

Results

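The H3K9me3 peaks on the X chromosome of male *Drosophila melanogaster* were described in this data set, as 19284 peaks in 16 male peak lists. A peak was a member when its list placed it on X, and nothing else about it was used to choose it. The male lists held 367471 peaks on the main chromosomes, of which 348187 lay on the autosomes, and the whole series of 31 H3K9me3 lists held 738735. The *fru P1* neurons were sampled at 3 stages, 48hr after puparium formation (48hr APF), 1-day adult and 10-12 day adult, and the *elav* neurons at the 1-day stage, with 4 male libraries for each. The 15 female lists, 4 per combination and 3 for 10-12 day *fru P1* females, served for comparison and held 65181 peaks on X. The paper reports a difficulty with peak calling on the X of males, which other settings and another peak caller did not resolve. Purification and sequencing of this chromosome had worked, according to the authors. Lower male counts and coverage on X therefore cannot be read as less H3K9me3.

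All flies carried a *UAS-Chromatag* transgene, which expresses a tagged histone H2B where Gal4 is present, together with a *P[w+mC, UAS-Gal4]* transgene in a *w* background. *fru P1-Gal4* drove the tag in the neurons that express the sex-specific *fruitless* transcripts, and *elav-Gal4* drove it across neurons. H3K9me3-bearing chromatin was purified first with an antibody, and the chromatin of the tagged cells was then taken from it with streptavidin. Each library pooled many sex-sorted animals, whole pupae at 48hr APF and heads of adults, so that the pupal stage and the starting tissue cannot be told apart, and each stage also had its own input. Each *elav* library had its own input as control, whereas *fru P1* libraries used 1 input pooled over replicates. All *elav* male libraries held fewer tags than any 1-day *fru P1* male library. Cell type, depth and kind of control cannot be told apart here. Purity cannot be read from peaks of a chromatin mark, and the label of each cell type was taken as given.

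H3K9me3 is the mark of constitutive heterochromatin. It is bound by HP1 proteins and marks pericentromeric DNA, telomeres and silenced transposons. Male flies have 1 X and 1 Y chromosome, females have a pair of X chromosomes, and in males the MSL complex with its *roX* RNAs acetylates histone H4 along the X and raises its transcription.

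Few bases of X were covered in nearly all male libraries, and these lay in 7 stretches where at least 14 of the 16 had a peak. The DNA at each is shown because these are the most reproducible peaks of the male X, given for the plus strand of X in dm6 as RefSeq holds it. Capitals mark the bases under a peak in 14 male libraries, in 15 for the *R1A1* and *gypsy6* stretch, and in all 16 for the *hobo* and *rover* stretches.
HeT-A stretch at chrX:115527-115826: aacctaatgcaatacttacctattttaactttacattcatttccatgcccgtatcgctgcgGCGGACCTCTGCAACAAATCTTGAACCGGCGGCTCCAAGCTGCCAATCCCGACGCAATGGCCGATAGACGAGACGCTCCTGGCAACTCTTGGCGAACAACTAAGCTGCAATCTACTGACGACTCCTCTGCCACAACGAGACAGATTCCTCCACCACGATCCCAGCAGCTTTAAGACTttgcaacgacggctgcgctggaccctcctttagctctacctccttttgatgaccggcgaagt
*w* exon stretch at chrX:2791905-2791964: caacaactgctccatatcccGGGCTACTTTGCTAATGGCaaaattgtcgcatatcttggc
*hobo* stretch at chrX:8294873-8295172: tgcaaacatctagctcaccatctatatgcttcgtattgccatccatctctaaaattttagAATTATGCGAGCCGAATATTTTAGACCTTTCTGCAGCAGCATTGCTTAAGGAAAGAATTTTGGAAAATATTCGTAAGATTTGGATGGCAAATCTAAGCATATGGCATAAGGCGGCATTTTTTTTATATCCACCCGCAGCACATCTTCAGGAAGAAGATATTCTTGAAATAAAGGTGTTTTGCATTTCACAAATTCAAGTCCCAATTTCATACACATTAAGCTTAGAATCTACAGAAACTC
GA/TC-rich stretch at chrX:8661091-8661390: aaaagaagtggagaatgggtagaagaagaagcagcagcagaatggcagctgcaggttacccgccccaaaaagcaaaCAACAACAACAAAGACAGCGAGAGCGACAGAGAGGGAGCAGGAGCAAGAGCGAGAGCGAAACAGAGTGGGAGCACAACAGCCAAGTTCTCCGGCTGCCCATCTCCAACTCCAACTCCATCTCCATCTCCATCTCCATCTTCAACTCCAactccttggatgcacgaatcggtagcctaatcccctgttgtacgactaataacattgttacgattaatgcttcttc
*R1A1* and *gypsy6* stretch at chrX:22373386-22373685: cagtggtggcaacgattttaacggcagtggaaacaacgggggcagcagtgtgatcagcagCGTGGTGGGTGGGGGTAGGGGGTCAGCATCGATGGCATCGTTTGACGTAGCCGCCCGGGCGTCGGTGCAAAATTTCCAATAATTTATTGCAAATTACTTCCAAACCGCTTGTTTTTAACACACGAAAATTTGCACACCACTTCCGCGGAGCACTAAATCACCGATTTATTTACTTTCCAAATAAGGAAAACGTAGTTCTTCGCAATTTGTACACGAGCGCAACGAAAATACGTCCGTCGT
*rover* stretch at chrX:22432945-22433244: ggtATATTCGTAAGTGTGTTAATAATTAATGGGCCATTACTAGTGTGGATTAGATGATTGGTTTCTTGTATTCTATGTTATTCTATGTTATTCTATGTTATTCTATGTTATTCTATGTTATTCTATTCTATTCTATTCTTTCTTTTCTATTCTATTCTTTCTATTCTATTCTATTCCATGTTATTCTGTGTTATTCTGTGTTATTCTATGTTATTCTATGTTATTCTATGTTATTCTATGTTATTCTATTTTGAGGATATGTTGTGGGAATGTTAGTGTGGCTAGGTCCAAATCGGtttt
centromere-end stretch at chrX:23452935-23453234: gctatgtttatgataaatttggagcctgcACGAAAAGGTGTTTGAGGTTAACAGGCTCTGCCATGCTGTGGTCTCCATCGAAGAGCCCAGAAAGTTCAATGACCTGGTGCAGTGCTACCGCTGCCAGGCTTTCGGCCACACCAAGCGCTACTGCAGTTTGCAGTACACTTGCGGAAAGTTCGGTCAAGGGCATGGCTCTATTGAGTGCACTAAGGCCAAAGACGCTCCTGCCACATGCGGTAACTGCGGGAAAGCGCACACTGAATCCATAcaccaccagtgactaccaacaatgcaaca

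Of the 7 stretches, 4 lay in annotated transposons. The first, chrX:115588-115764, lay wholly in a copy of *HeT-A*, the non-LTR retrotransposon that builds fly telomeres. The third, chrX:8294688-8295630, lay wholly in a copy of *hobo*, a DNA transposon, within an intron of *nAChRalpha3*, which encodes a nicotinic acetylcholine receptor subunit. The fifth, chrX:22373435-22373885, lay for 81.6% of its length in the retrotransposons *R1A1* and *gypsy6*, and the sixth, chrX:22432908-22433289, lay wholly in the LTR retrotransposon *rover*. The other 3 were an exonic stretch of *w*, chrX:2791925-2791943, and 2 stretches outside annotated genes and transposons, chrX:8661167-8661314 and chrX:23452964-23453205. *w* encodes a transporter of eye pigment precursors, and the stretch also lies within the span of *kirre*. A BLAST search at 90% identity over 80% of the length found the *HeT-A* window 5 times on the main chromosomes, 4 of them on X, and each other window 1 time. Reads that aligned to more than 1 place had been left out by the authors, so that repeated copies are measured only where they differ.

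The *rover* stretch carried the strongest X peak in 14 of the 16 male libraries, and also in 14 of the 15 female libraries. Its fold enrichment was 2.55, 2.47, 5.36 and 4.71 in 48hr APF males, 4.77, 5.31, 4.99 and 5.48 in 1-day males and 10.56, 5.94, 5.28 and 6.39 in 10-12 day males. In *elav* males it was 3.07, 5.26, 2.96 and 4.85. Both libraries of low value at 48hr APF, replicates 1 and 2, lay below all adult males, and the highest, 10-12 day replicate 1, was the library with the fewest tags. The peak passed a q-value of 0.05 in 16 of 16 male libraries and 14 of 15 female libraries.

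Over libraries, fold enrichment at *rover* averaged 5.00 ± 1.91 in males (SD, n = 16), against 4.03 ± 1.36 in females (SD, n = 15). The difference averaged over the 4 combinations was 0.84, higher in males in 4 of 4, and did not pass (permutation test within combinations, p = 0.0608, adjusted p = 0.122 over 4 tests). At the *hobo* stretch males averaged 1.77 ± 0.153 and females 1.75 ± 0.168, a difference of 0.02 (permutation p = 0.677, adjusted p = 0.902). Neither difference passed. The stretches were chosen for a peak in at least 14 of the 16 male libraries, which favours males in such a comparison. Tests at these stretches therefore cannot decide whether the sexes differ there. Pileup scaled to 1000000 tags at *rover* averaged 20.3 ± 8.55 in males and 17.2 ± 9.11 in females (permutation p = 0.0434, adjusted p = 0.122).

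Between stages of *fru P1* males, the fold enrichment at *rover* differed by 1.37 for 1-day minus 48hr APF, 1.91 for 10-12 day minus 1-day and 3.27 for 10-12 day minus 48hr APF. The difference for *elav* minus *fru P1* of 1-day males was -1.10. None of the 4 passed (exact permutation test over libraries, p = 0.143, 0.0857, 0.0571 and 0.171, adjusted p = 0.171 for each). These comparisons were chosen after the values had been seen. Without 10-12 day replicate 1 the difference to 1-day males was 0.74.

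The printed *rover* window holds a short repeat. Its most frequent word of 10 bases, ATGTTATTCT, occurred 10 times in it counting both strands, and at least 1 time in 57 of 78474 windows of 300 bases along X (0.0726%). Of the words of 50 bases in the window, 85.7% occurred nowhere else in the genome. Its GC content was 27.7%, the lowest of the printed windows.

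The other stretches had weaker peaks. Fold enrichment ran from 1.46 to 2.17 in the 14 male libraries with a peak at *HeT-A*, from 1.48 to 2.05 in 16 at *hobo* and from 1.37 to 2.52 in 15 at *R1A1* and *gypsy6*. It ran from 1.48 to 1.86 in the 14 with a peak at the GA/TC-rich stretch and from 1.43 to 2.15 in the 14 at the centromere end. The libraries without a peak at one of these stretches were 48hr APF libraries in every case but 1, *elav* replicate 1 at *HeT-A*. In females the same stretches had a peak in 9 of 15 libraries at *HeT-A*, 15 at *hobo*, 14 at *R1A1* and *gypsy6*, 13 at the GA/TC-rich stretch and 12 at the centromere end. Since the stretches were chosen for recurrence in males, lower female counts do not show a difference between the sexes.

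**Figure D1:**
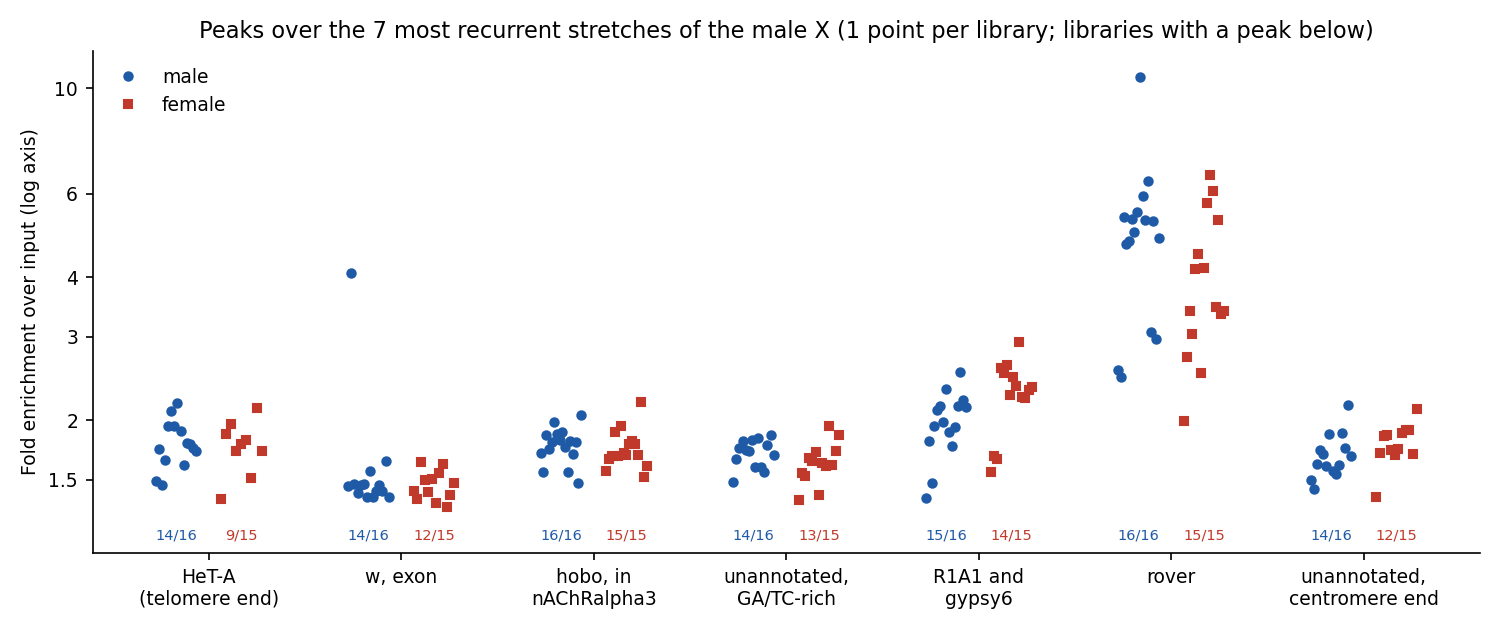
Fold enrichment over the local background (log axis, marked as over input) at the 7 stretches most recurrent in male libraries. There is 1 point per male library (circles) or female library (squares), and the libraries with a peak are counted below. The *rover* stretch lies highest, from 2.47 to 10.56 in males and from 1.996 to 6.56 in females, and a single male library reaches 4.09 at *w*.

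At *w*, 48hr APF male replicate 2 stood apart. Its peaks there had fold enrichments of 4.09 and 4.2, at chrX:2790167-2793242 and chrX:2795974-2796724, and the larger pileup was 76.6 fragments. The highest fold enrichment over *w* in the other 48hr APF males was 1.59, 1.47 and 1.45, and in the 12 remaining males it ran from 1.38 to 1.64. In replicate 2 the peaks covered 12.1% of the longest intron of *w* (chrX:2793129-2796236) and 100% of the rest of the gene. In the other 15 males the peaks covered 0% to 14.6% of the intron and 2.68% to 91.7% of the rest, with the larger share outside the intron in 14 of 15. In the 14 females with a peak, up to 17.5% of the intron and 28.0% to 100% of the rest were covered. Females with a peak had values of 1.31 to 1.67. The flies carry *w+mC* marker transgenes in a *w* background, and the part of transgene copies in this signal was not tested.

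Male libraries differed widely in the number of X peaks, also within a group. There were 327, 1358, 651 and 582 at 48hr APF, 1444, 1780, 1318 and 778 in 1-day males and 1530, 894, 1251 and 931 in 10-12 day males. *elav* males had 1429, 1204, 2564 and 1243. The groups overlap, with 48hr APF replicate 2 among the adults and *elav* replicate 3 far above all others. Covered bases were 0.839% of X in the lowest library, 4.34% in the median library and 7.53% in the highest.

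X peaks per library averaged 1330 ± 416 in 1-day and 730 ± 442 in 48hr APF *fru P1* males (SD, n = 4 each), a difference of 600.5 (exact permutation p = 0.0857, adjusted p = 0.343). The 10-12 day males averaged 1152 ± 298.9, a difference of -178.5 to 1-day males (exact permutation p = 0.543, adjusted p = 0.629) and of 422 to 48hr APF males (exact permutation p = 0.171, adjusted p = 0.343). *elav* males averaged 1610 ± 644 and *fru P1* males of the same age 1330 ± 416, a difference of 280 (exact permutation p = 0.629, adjusted p = 0.629). None of these differences passed, and the groups overlap. The smallest p that 4 libraries against 4 allow is 0.02857, and 0.114 after adjustment for a single comparison among 4, so that this does not show that the groups were alike. Covered length, with differences of 539 kb, -233 kb, 306 kb and 220 kb in the same order, did not pass either (exact permutation test, adjusted p = 0.343, 0.457, 0.343 and 0.457).

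Libraries that stand apart bear on these numbers. *elav* replicate 3 had a fragment length of 140 bp, against 200 bp in the other lists, the fewest tags of the *elav* males (2295291), and a median X peak width of 495 bp against 670 to 690 bp. Without it, the *elav* difference was -38 peaks. 10-12 day replicate 1 kept 2119672 tags after 50.5% were removed as duplicates, against 2.07% to 2.40% removed in the other 10-12 day males. Tags after filtering ran from 2119672 to 5246257 over the 16 male libraries.

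**Figure D2:**
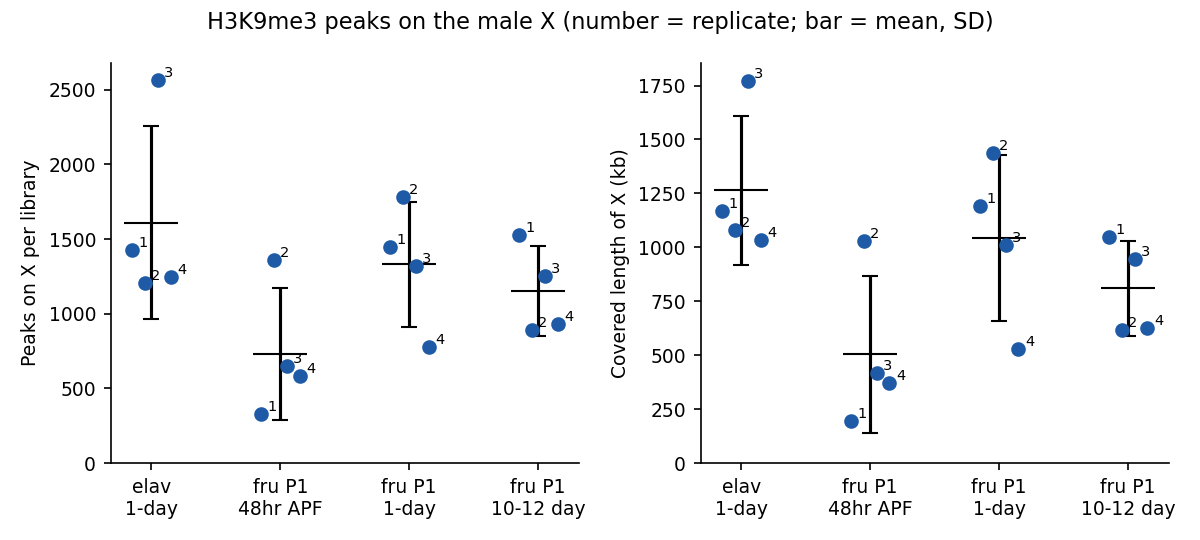
Number of H3K9me3 peaks on the male X (left) and length of X they cover in kb (right), with 1 point per library, numbered by replicate, and the mean and SD of each group of 4. *elav* replicate 3 lies at 2564 peaks and 48hr APF replicate 1 at 327, and the groups overlap.

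Peaks of the male X were narrower than those of the same libraries' autosomes. The median width per library averaged 623 ± 57.3 bp on X (lowest 495, median 616.5, highest 694) and 970 ± 113 bp on the autosomes (lowest 658, median 962.5, highest 1146; SD, n = 16). X was lower in 16 of 16 libraries, with a mean difference of -347 bp (two-sided exact sign-flip permutation test, p = 3.05e-05, the smallest possible, adjusted p = 6.1e-05). Against females, whose X peaks averaged 939 ± 67.6 bp (n = 15), the difference was -313 bp (permutation test within combinations, p = 1e-05, the smallest it can give, adjusted p = 2e-05). Male and female X widths did not overlap in any of the 4 combinations of stage and cell type. Peaks over 5 kb numbered 0 to 8 per library on the male X, against 132 to 1106 on the male autosomes and 23 to 161 on the female X. These are counts, and the male X held far fewer peaks in all. The totals were 19284 on the male X, 348187 on the male autosomes and 65181 on the female X. The widest male X peak, of 10397 bp, was in *elav* replicate 3.

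The peaks were also lower in pileup, the mean number of fragments over a peak. Its median per library averaged 10.6 ± 2.73 on X and 13.5 ± 3.69 on the autosomes, a difference of -2.85 and lower in every library (exact sign-flip permutation p = 3.05e-05, adjusted p = 6.1e-05). Scaled to 1000000 tags it averaged 2.78 ± 0.215 on the male X and 3.33 ± 0.198 on the female X, a difference of -0.55 (permutation p = 1e-05, adjusted p = 2e-05). When only 2-fold or stronger peaks, or peaks of q below 0.05, were kept, the direction turned, to 14.6 and 16.4 for X minus autosomes and 2.89 and 5.15 for male minus female X in scaled pileup. The lowest pileup of any peak was the same on X as on the autosomes in each male library, 5 to 13 fragments. The local background of a peak was derived from its deposited pileup and fold enrichment, both averaged over the peak, so it is approximate. The genome-wide value was derived from tags and fragment length. Local over genome-wide background had medians of 1.02 ± 0.0203 on the male X, 1.32 ± 0.0596 on the male autosomes and 1.24 ± 0.0650 on the female X. By this estimate the local background of male X peaks lay close to the genome-wide value, the lowest that the peak caller uses. The part of that floor in their number and shape was not tested.

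No difference in fold enrichment passed. Its median averaged 1.54 ± 0.0968 on the male X and 1.53 ± 0.0810 on the male autosomes (exact sign-flip permutation p = 0.303), and 1.54 on the male X against 1.51 ± 0.0717 on the female X (permutation p = 0.0684). Fold enrichment is a ratio to the local background, which relative to the genome-wide value was lower on the male X than in either comparison. Alike ratios therefore need not mean alike signal over input. The median -log10 p was lower on the male X, at 1.33 ± 0.0987 against 1.42 ± 0.0555 on the male autosomes (exact sign-flip permutation, adjusted p = 0.000407) and 1.42 ± 0.0723 on the female X (permutation, adjusted p = 0.00127). Fold enrichment of at least 2 was reached by 1 to 25 X peaks in *fru P1* males and by 43, 105, 400 and 25 in *elav* males. This was 2.19% ± 4.17 of X peaks per male library and 1.33% ± 2.83 of male autosomal peaks (SD, n = 16). A q-value below 0.05 was reached by 1 to 8 X peaks per male library, 38 in all (0.197% of male X peaks), against 185 male autosomal peaks (0.0531%). In females the shares were 0.135% on X and 0.113% on the autosomes. Neither contrast in these shares was tested. The 38 male X peaks fell in 13 regions, 9 of them in a single library, and only *rover* was in 8 or more. When only peaks of at least 2-fold enrichment were kept, X exceeded the autosomes in fold enrichment, by 0.91 (exact sign-flip permutation, adjusted p = 0.00208), and the width difference of -86.6 bp no longer passed (adjusted p = 0.117). The -log10 p of X then exceeded that of the autosomes by 7.61, and also exceeded it by 0.06 with -log10 p of at least 2 and by 12.6 with q below 0.05. Male minus female X turned in the same way, to 6.86, 0.05 and 11.1.

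Male X peaks were placed less often within 3 kb of a transcription start site, with a mean difference of -5.22 percentage points to the autosomes (exact sign-flip permutation p = 0.00168). The stages differed in direction: X minus autosomes was -10.97, -6.98 and 2.01 points at 48hr APF, 1 day and 10-12 days in *fru P1* males, and -4.95 points in *elav* males. Whether these differences differ among stages was not tested. Female libraries had X minus autosomes of -5.88 points on average, lower on X in 15 of 15. The difference between the sexes in this was not tested.

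**Figure D3:**
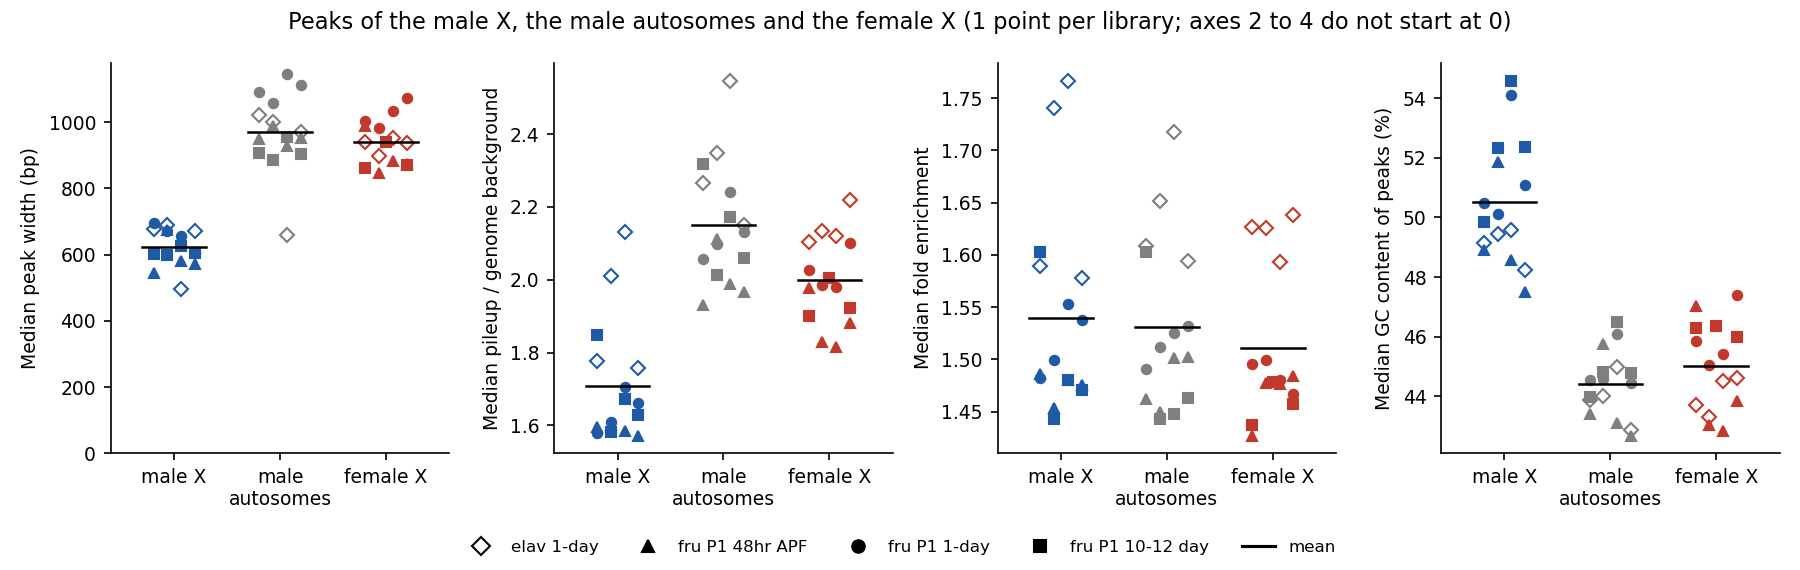
Per library, the median width in bp, the median pileup over the genome-wide background, the median fold enrichment and the median GC content in percent of peaks on the male X, the male autosomes and the female X, with symbols by stage and cell type and bars at the means. Male X widths (495 to 694 bp) lie below and GC contents (47.5% to 54.6%) above those of the female X, and fold enrichments overlap.

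Male X peaks were richer in GC and in exons than either comparison, a composition examined after the peaks had been seen. Their median GC content averaged 50.5% ± 2.06 over libraries, against 44.4% ± 1.11 on the male autosomes, and was higher in 16 of 16 libraries, by 4.62 to 8.08 points (exact sign-flip permutation p = 3.05e-05). Female X peaks averaged 45.0% ± 1.47, a difference of 5.42 points (permutation p = 1e-05), and whole X holds 42.5% GC. Exons made up 44.9% ± 12.3 of the bases under male X peaks, 26.3% ± 5.23 under male autosomal peaks (exact sign-flip permutation p = 3.05e-05) and 26.9% ± 7.33 under female X peaks (permutation p = 1e-05), against 27.9% of whole X. In females, X minus autosomes averaged 0.14 points in GC content and -1.25 points in exonic bases. GC content and exon content moved together here, and the part of either in which peaks were called was not tested.

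The exonic share of male X peak bases averaged 36.1% ± 9.44 at 48hr APF, 47.7% ± 10.0 at 1 day and 59.2% ± 9.67 at 10-12 days in *fru P1* males, and 36.6% ± 1.32 in *elav* males (SD, n = 4 each). The differences were 11.6 points for 1-day minus 48hr APF, 11.4 for 10-12 day minus 1-day, 23.1 for 10-12 day minus 48hr APF and -11.1 for *elav* minus *fru P1*. The exact permutation p was 0.143, 0.143, 0.0571 and 0.02857, and the adjusted p 0.143, 0.143, 0.114 and 0.114. The *elav* and 1-day *fru P1* libraries did not overlap, at 35.1% to 38.3% and 42.3% to 62.7%. A single comparison of 4 against 4 libraries cannot go below an adjusted p of 0.114 among 4, so that the missing call says nothing about this difference. Without 48hr APF replicate 2, whose exonic share of 49.03% was the highest of its group, the adjusted p of 3 of these was 0.0381. Transposons held 0.789% ± 0.284 of the bases under male X peaks and 0.438% ± 0.158 of those under female X peaks (permutation, adjusted p = 0.00032), both below the 5.50% of whole X.

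Composition changed with recurrence. Bases of X under no male peak held 39.8% GC, and those under a peak in 8 to 11 male libraries held 56.1% GC and were exonic for 75.8%. The 6913 bases under a peak in 12 or more male libraries were exonic for only 30.7% and lay in transposons for 32.0%. This is a description over bases, which are not replicates.

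Along X the peaks were spread over all 24 bins of 1 Mb, counted from the telomere end, with 168 peaks in bin 24, which is not a full bin, to 1308 in bin 2. Every other bin held a peak in every male library, and bin 24 held 0 to 33. The share of a library's X peaks differed between the sexes in 14 of 24 bins, 58.3% of those tested (permutation within combinations, adjusted p of 0.05 or less), with males higher in 6 and lower in 8. Males had 7.02% ± 1.41 of their X peaks in bin 2, between 1 and 2 Mb, against 4.52% ± 0.332 in females, a ratio of 1.55 (permutation, adjusted p = 4e-05). In the 48hr APF, 1-day and 10-12 day *fru P1* males this share was 7.98%, 6.89% and 8.13%, and 5.07% in *elav* males. In bin 4, between 3 and 4 Mb, males had 2.48% ± 0.582 against 4.16% ± 0.464 in females, a ratio of 0.595 (permutation, adjusted p = 4e-05).

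Male shares were also higher in bins 3, 5, 19, 20 and 21, with ratios of 1.13 to 1.26, and lower in bins 6, 11, 12, 13, 14, 15 and 23, with ratios of 0.681 to 0.925. In 5 of these the means of 1 combination went the other way. Male and female shares were 4.16% and 3.49% in bin 13 and 3.50% and 4.1996% in bin 20 at 48hr APF. At 10-12 days they were 4.69% and 4.78% in bin 5, 4.43% and 4.25% in bin 12 and 4.24% and 4.503% in bin 21. The bin ratios rose with the GC content of the bin across 24 bins (r = 0.882, rho = 0.792), from 40.0% GC in bin 23 to 47.2% in bin 2. Bins share libraries and chromosome, so that this is a description. The correlation was weaker with the exonic share of the bin (r = 0.189, rho = 0.115) and with its transposon share (r = -0.130, rho = 0.0652). With bins of 500 kb, 21 of 48 passed (43.75%), and with bins of 2 Mb, 8 of 12 (66.7%). Only 4 bins passed with peaks of -log10 p of at least 2, 1 with q below 0.05 and 0 with at least 2-fold enrichment.

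**Figure D4:**
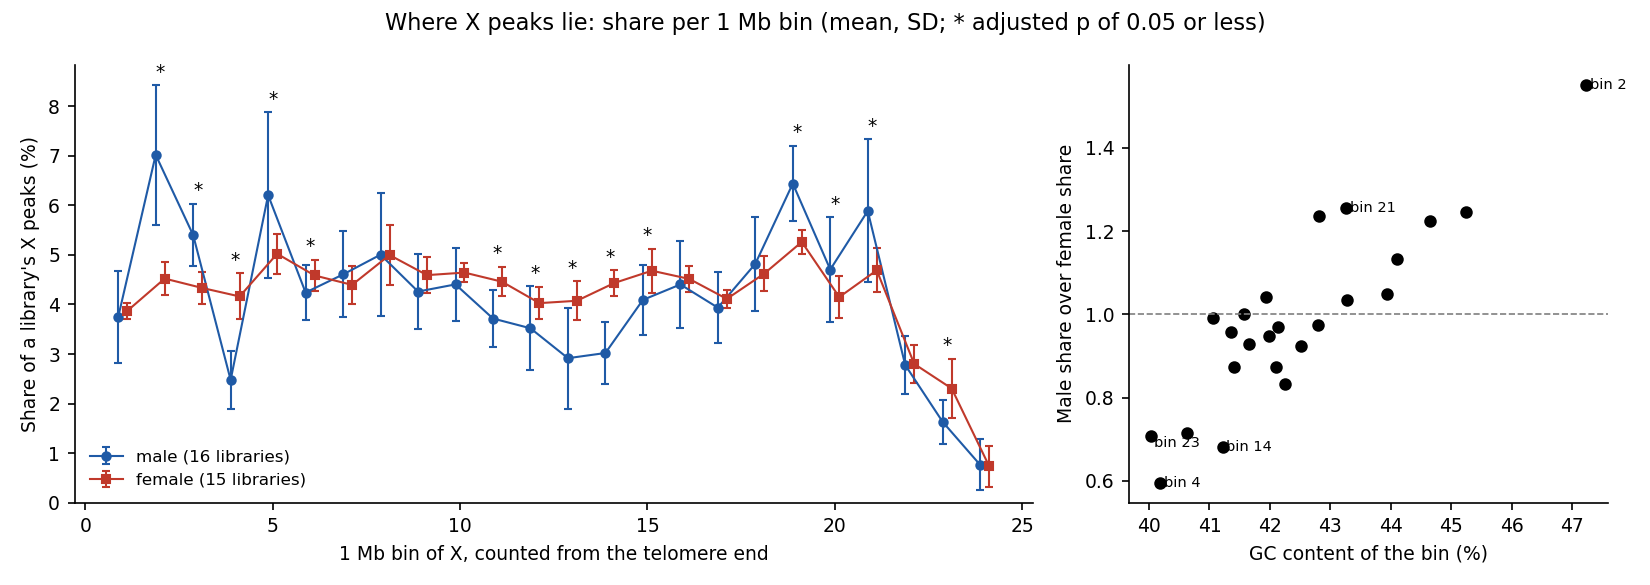
Left, share of a library's X peaks in each 1 Mb bin of X in percent, as the mean and SD over 16 male libraries (circles) and 15 female libraries (squares), with an asterisk where the adjusted permutation p was 0.05 or less. Right, the male share over the female share against the GC content of the bin, from a ratio of 0.595 in bin 4 to 1.55 in bin 2.

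The 2 Mb next to the centromere held a smaller share of X peaks in males than in females, with a difference of -0.71 percentage points (permutation, adjusted p = 0.00028). Within combinations the differences were -0.495 and -0.054 points in 48hr APF and 1-day *fru P1* neurons, where the sexes overlapped, and -1.12 and -1.18 points in 10-12 day *fru P1* and *elav* neurons, where they did not. As a share of covered length the difference was -0.137 points and did not pass (permutation, adjusted p = 0.363). Among peaks with a -log10 p of at least 2, males had the larger share, by 5.57 points (permutation, adjusted p = 0.00838). The telomere-end 1 Mb differed by -0.12 points (permutation p = 0.607).

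Recurrence of peaks over all libraries was low in males, and also in females. Of the bases of X, 69.7% lay under no male peak, against 23.3% under no female peak, 15.8% lay under a peak in 1 male library, and 909 bases (0.00386%) in all 16. In females, whose peaks covered more of X, 3711 bases (0.0158%) lay under a peak in all 15 libraries. Merged over male libraries, the peaks formed 6204 regions, of which 2850 (45.9%) had a peak in 1 library only, 473 in at least 8 and 6 in all 16. The median merged width was 427 bp for regions of 1 library and 5210.5 bp for regions of all 16. Merging makes a region wider the more libraries it joins, so this says little about single peaks.

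Recurrence within a group went with the length of X that the other replicates covered. Of the X peaks of a library, 21.6% to 37.3% overlapped a peak of another replicate at 48hr APF, 51.5% to 64.3% at 1 day, 36.3% to 54.7% at 10-12 days and 57.6% to 77.8% in *elav* males. The other replicates covered 3.98% to 7.20% of X at 48hr APF, 9.64% to 12.3% at 1 day, 7.99% to 9.78% at 10-12 days and 10.7% to 12.7% in *elav* males. Overlap over covered share was 4.73 to 5.42, 5.21 to 5.65, 4.55 to 5.84 and 5.40 to 6.14 in the same order, so the *fru P1* stages overlapped in this measure. A peak counted as overlapping from 1 bp on, whereas the covered share counts bases. Peaks touch others more often than that share, so the ratio gives no excess over chance. No difference in recurrence was tested. Requiring 2 of 4 replicates left 360 regions at 48hr APF, 1185 at 1 day, 913 at 10-12 days and 1394 in *elav* males, and requiring all 4 left 13, 126, 53 and 310.

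Most male X peaks overlapped a peak of some female library of the same stage and cell type by at least 1 bp. Between 90.6% and 98.5% of a male library's X peaks overlapped a peak of at least 1 such female library, while these female peaks covered 45.8% to 54.6% of X. The first share counts peaks touched and the second counts bases, so they are not on the same scale. A peak of every such female library was overlapped by 8.17% to 12.7% at 48hr APF, 41.0% to 49.03% at 1 day, 20.1% to 30.5% at 10-12 days and 37.5% to 47.7% in *elav* males. Of the 6204 merged male regions, 25 (0.403%) had no female peak in any library, and 24 of these came from a single male library.

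**Figure D5:**
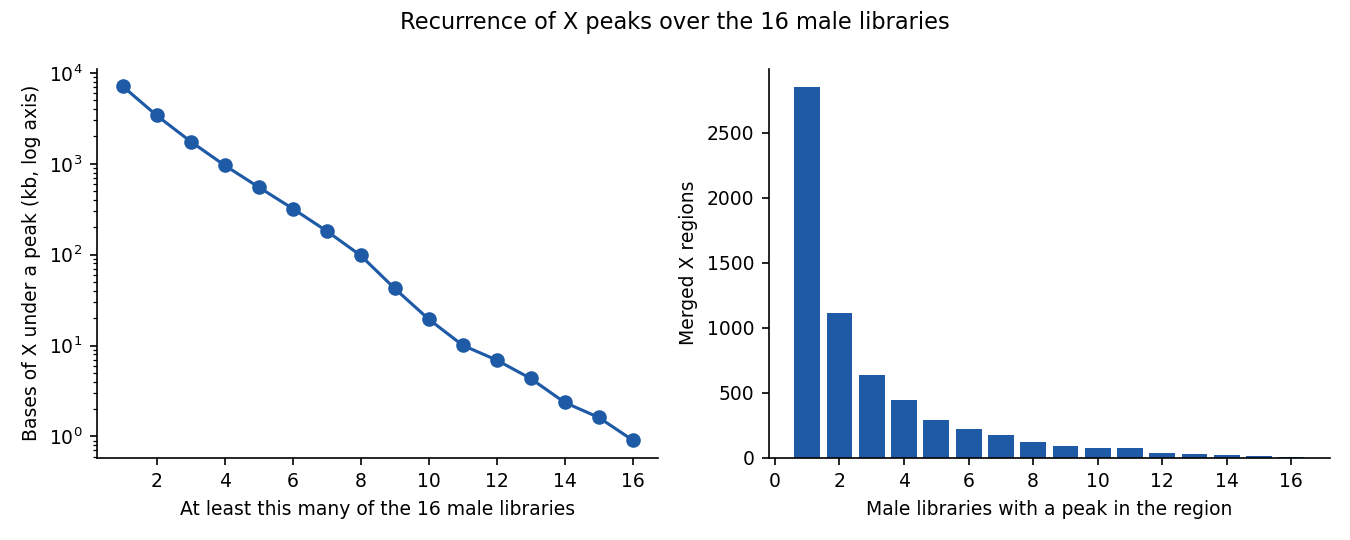
Left, kb of X under a peak in at least the given number of the 16 male libraries (log axis), which is lowest, at 909 bases, for all 16. Right, number of merged X regions by the number of male libraries with a peak, from 2850 in 1 library to 6 in all 16.

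The regions in most libraries were the *rover* region (chrX:22432881-22433336) and the *hobo* region (chrX:8294245-8295945), with mean fold enrichments of 5.00 and 1.77 over 16 libraries. Next came chrX:20739007-20754923 (1.70), which touches *lncRNA:CR45059* and *CG15452*, the *w* region chrX:2790167-2793583 (1.61), chrX:14193224-14200227 over *yl* (1.60) and chrX:1706363-1714901 at *CG3795* (1.60). With 15 libraries followed the *R1A1* and *gypsy6* region (1.98), chrX:1527511-1535322 within *Mur2B* (1.69), chrX:6550955-6562377 within *CG34417* (1.64) and chrX:19555592-19559891 (1.64), which holds a group of microRNA genes and part of *Grip84*. The *rover* region was covered evenly, 64.3% to 100% of it per library, whereas the region at *lncRNA:CR45059* was covered for 2.90% to 58.6%.

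Of the 1975 X genes of at least 1 kb, 289 (14.6%) had no peak in any male library, 461 (23.3%) had one in at least 8 and 39 (1.97%) in all 16. On the autosomes the same libraries had no peak in 1.37% of 10205 such genes, and a peak in all 16 in 19.5%. The 10 X genes with peaks in the most male libraries and the highest coverage were *yl*, *w*, *RunxA*, *Nmdar2*, *Lim1*, *lncRNA:CR32773*, *inc*, *Cph*, *CG1504* and *Mur2B*, and each had a peak in 16 of 16. In females *w* had a peak in 14 libraries and each of the others in 15. Most of these genes are long, up to 223710 bp in *lncRNA:CR32773*. The chance to overlap a peak grows with length, and its part in these counts was not tested.

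*yl*, the yolk protein receptor of the oocyte (chrX:14193214-14199958), had the highest coverage of these. Peaks covered 8.07%, 15.3%, 11.3% and 18.7% of it in 48hr APF males, 84.0%, 43.9%, 72.0% and 11.6% in 1-day males and 14.8%, 59.6%, 31.6% and 20.6% in 10-12 day males. In *elav* males they covered 76.8%, 74.4%, 68.0% and 74.9%. Coverage in *elav* males was even, and the 1-day *fru P1* males ranged from below to above it. Over libraries *yl* averaged 42.8% in males and 66.1% in females, and *w* 29.4% and 36.2%. *RunxA*, a Runt-family transcription factor, averaged 14.1% over males, against 51.8% over females. *Lim1*, a LIM-homeodomain factor, averaged 10.2% over males, against 58.0% over females. Whole X was covered for 3.85% ± 1.77 in males (n = 16), against 24.6% ± 3.65 in females (n = 15). This gap between the sexes was present across X, and the part of the reported difficulty with peak calling in it was not tested. *Nmdar2*, an NMDA receptor subunit, and *inc*, a Cullin-3 adaptor that affects sleep, overlap on the genome and share their peaks.

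Genes present in one male group and absent from another were few, among the 2813 X genes as among all genes. A peak in all 4 libraries of 1-day males and in none of 48hr APF was found for 35 X genes (1.24%), against a background of 1.02% of all 18164 genes, and the reverse for 0, against 0.16%. The most covered of the 35 were *lncRNA:CR45500* (93.3%), the chorion protein gene *Cp36* (70.8%) and *HP1D3csd* (50.2%). For 10-12 day against 48hr APF males the counts were 21 (0.747%, background 0.985%) and 0 (background 0.121%), led by *CG10761*, *mst* and *Coq8*. For 10-12 day against 1-day males they were 5 (0.178%, background 0.6%), led by *CG16903*, *TRAM* and *CG18809*, and 5 in reverse (0.178%, background 0.358%), led by *HP1D3csd*, *CG1368* and *CG1503*.

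For *elav* against *fru P1* males of 1 day, 5 X genes had a peak in all 4 *elav* libraries only (0.178%, background 0.0936%), led by *CG45060*, *lncRNA:CR32730* and *CG6067*. In reverse there were 8 (0.284%, background 1.25%), led by *CG1368*, *CG15773* and *Nup205*, a nuclear pore subunit. These counts describe presence of called peaks and carry no test. The share on X lay above but close to the genome-wide background for 1-day against 48hr APF males. It also lay above it for *elav* against *fru P1* males, on 5 genes. In every other comparison and direction the share on X lay below the background.

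Among 9 X genes of sex determination and dosage compensation, 8 had a peak in at least 1 male library and 2 in at least 8. The shares for X genes of at least 1 kb were 85.4% and 23.3%, close to those of the list. The 2 in at least 8 libraries were *run* and *upd1*, both X-linked signal elements that count X chromosomes in the embryo. *run* had a peak in 14 males and averaged 11.2%, 32.4% and 11.8% coverage at 48hr APF, 1 day and 10-12 days, and 53.2% in *elav* males. *upd1*, a JAK/STAT ligand, had one in 13 and averaged 0.381%, 20.7% and 22.1%, and 65.3% in *elav* males. Of the other signal elements, *sc* had a peak in 7 males and *sisA* in 6, and *Sxl*, the switch gene they act on, in 3. *lncRNA:roX1* had a peak in 1 male and 14 female libraries, *lncRNA:roX2* in none of either sex, and *mof*, the acetyltransferase of the MSL complex, in 2 males. Across all X genes of at least 1 kb the median was 3 male libraries, and it was 3 in this list as well.

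Of 8 genes listed for the centromere end of X, 6 had a male peak and 4 had one in at least 8 libraries. The shares were 85.4% and 23.3% for X genes of at least 1 kb. The 4 were *shakB*, a gap junction innexin (16), *stnA* and *stnB* (13), which share one transcript and act in synaptic vesicle recycling, and *fog*, a gastrulation signal (8). *stnA* and *stnB* have the same span, so that a single locus is counted for both. *shakB* (chrX:20761071-20927050) and *amn* (chrX:19886108-19890060) lie outside the 2 Mb next to the centromere, and both are also in the neuronal list. *shakB* is 165980 bp long, and the part of gene length in these counts was not tested. The piRNA cluster *lncRNA:flam* had a peak in 1 male and 7 female libraries, and *su(f)* and *amn* had none in males. Coverage was low, from 1.99% to 3.86% of the gene on average in males for the 4.

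Of 20 neuronal genes, 19 had a male peak and 13 had one in at least 8 libraries, with a median of 10.5. Of X genes of at least 1 kb, 85.4% had a male peak and 23.3% had one in at least 8 libraries, with a median of 3. In females the median was 15 libraries for the list and 10 for these X genes. *Sh*, a potassium channel, *nAChRalpha3*, *rdgA*, the diacylglycerol kinase of photoreceptors, and *shakB* had one in all 16. The clock gene *per* had one in 11 and the potassium leak channel gene *Ork1* in 11, with a coverage of 13.4% and 10.9% on average in males, the highest of the list. In *elav* males *per* was covered for 22.5% and *Ork1* for 27.6%. The list holds long genes, up to 167328 bp in *dnc*, and the chance to overlap a peak grows with length. Its part in these counts was not tested.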

How the data were processed

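Sequential ChIP-seq libraries were processed by the authors, who, per the labels, trimmed reads with Trimmomatic, aligned them with Bowtie2 2.2.5, kept uniquely aligned reads with SAMtools 1.2 and called broad peaks with MACS2 (2.1.0 per the labels, 2.1.1.20160309 per the file headers) at p-value cutoffs of 0.01 for strong and 0.1 for broad regions. Each deposited list gives, per the file headers, a peak's coordinates and length, its pileup (signal, in fragments), its fold enrichment (a ratio to the local background) and its -log10 p and -log10 q, all averaged over the broad region by the authors. The headers state that q was not calculated, although the deposited -log10 q columns hold values. The tags were 50 bp long, and male libraries held 2119672 to 5246257 tags after filtering, which sets how weak a peak can be called.

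Peaks on the main chromosomes were counted per library, and each library gave 1 value per measure. Male X was compared with the autosomes of the same libraries by an exact sign-flip test and with female X by 100000 permutations within stage and cell type. Stages and cell types were compared by exact permutation, with Benjamini-Hochberg adjustment within each family. Annotation was Ensembl release 115 (BDGP6.54), and sequences were read from RefSeq dm6. Named regions were the 10 merged male regions (overlap of 1 bp) in the most male libraries, with ties ordered by mean fold enrichment. Named genes were the 10 X genes of at least 1 kb in the most male libraries, ordered by covered share, the 3 most covered genes for each presence comparison and direction, and the members of 4 lists. Members and lists were chosen with earlier results of these data known, and the GC, exon and *rover* comparisons were added after seeing the data. Replicates were independent biological samples per the labels, each a pool of animals. Values were computed with scipy 1.17.1, pandas 2.3.3 and numpy 2.4.6 under Python 3.11.15, copies were searched with BLAST+ 2.17.0, figures were drawn with matplotlib 3.10.9, and the statistics were tested on simulated data. Alternatives were peak thresholds, covered length, bin size, consensus rule, a replicate block and each library left out.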

Additional observations from a re-analysis of the deposited data

Results flagged for a closer look

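Of 65 groups of 4 libraries examined, 3 held a library whose distance to its nearest neighbour, divided by the range of the group, exceeded Dixon's 95% critical value. Chance gives about 1 in 20 such groups, and 3 of 65 does not exceed that rate. *elav* male replicate 3 had 2564 X peaks, against 1204 to 1429 in the other *elav* males, and a median X peak width of 495 bp, against 670 to 690 bp. Its fragment length was 140 bp, against 200 bp in the others, and the part of this in both values was not tested. The highest fold enrichment over *w* was 4.2 in 48hr APF male replicate 2, against 1.449 to 1.586 in the other 48hr APF males.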

How the results depend on the processing

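Of 787 recomputed values, 715 kept their direction and side of the threshold, 33 moved, 18 reversed, 13 came to pass and 8 no longer passed. With only peaks of -log10 p of at least 2, X minus autosomes in males was 0.08216 in fold enrichment and 0.05502 in -log10 p, male minus female X was 0.1238 and 0.04757, the share in the 2 Mb next to the centromere differed by 5.565 points and in the telomere-end 1 Mb by 1.178 points, 4 bins passed, and 2, 20, 10 and 72 regions recurred at 48hr APF, 1 day, 10-12 days and in *elav* males. With only peaks of q below 0.05, 10-12 day minus 48hr APF was -0.5 peaks and -0.9125 kb. X minus autosomes in males was then 16.35 in pileup, 1.568 in fold enrichment, 12.59 in -log10 p and -1.061 points near start sites. Male minus female X was -17.33 bp, 5.151 in scaled pileup, 1.375 in fold enrichment, 11.14 in -log10 p and -4.703 points next to the centromere, 1 bin passed, and 1, 3, 1 and 3 regions recurred. When only 2-fold or stronger peaks were kept, 10-12 day minus 1-day was 1.5 peaks and 0.5155 kb. X minus autosomes in males was then -86.59 bp, 14.62 in pileup, 0.9064 in fold enrichment, 7.609 in -log10 p and -13.93 points near start sites. Male minus female X was -40.41 bp, 2.889 in scaled pileup, 0.7769 in fold enrichment, 6.861 in -log10 p and -0.6398 points next to the centromere, 0 bins passed, and 1, 4, 1 and 39 regions recurred. These filters keep few X peaks per library, which limits them, and the cause of each change was not tested. As a share of covered length the centromere-end difference was -0.1366 points. With 2 Mb bins 8 of 12 passed. A peak in every replicate left 13, 126, 53 and 310 regions, and an overlap of 50% of both peaks 128, 591, 401 and 756.

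With each library left out in turn, male minus female X in fold enrichment ran from 0.02367 to 0.03989 and passed in 4 of 31 runs, the telomere-end difference from -0.208 to 0.03627 points and *elav* minus *fru P1* from -38 to 430 peaks, negative only without *elav* replicate 3. Exonic differences ran from 6.624 to 15.94 points for 1-day minus 48hr APF, 18.94 to 27.36 for 10-12 day minus 48hr APF and -12.91 to -6.1 for *elav* minus *fru P1*, and passed only without 48hr APF replicate 2. Recurring regions ran from 123 to 278 at 48hr APF, 719 to 995 at 1 day, 491 to 612 at 10-12 days and 799 to 1154 in *elav* males, since fewer libraries recur less often.

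Nothing in the labels says that samples with the same replicate number were collected together, and the main tests did not pair them. Correlations of their deviations ran from -0.731 to 0.579 over 4 pairs each in males. Over 15 pairs of male and female libraries they ran from -0.592 for fold enrichment to -0.029 for X peaks. So few pairs cannot decide whether same-numbered samples belong together. With a replicate block, X peaks differed by 600.5, -178.5, 422 and 280 (exact sign-flip permutation, adjusted p = 0.5, 0.875, 0.75 and 0.875). With 4 pairs the smallest p is 0.125, so that the comparisons of stages and cell types could not pass in this setting. The width of male minus female X was -314.5 bp (exact sign-flip permutation, adjusted p = 0.000122), and no call changed among the comparisons of male with female X. Depth and peak threshold limit what a list can hold, and a base without a peak may carry H3K9me3 below the threshold.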
